A study of Mus musculus with 9 samples.

Results

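The D-type cyclins and the other regulators of the G1 phase of the cell cycle described here are 10 genes, taken by their symbols from the 20287 gene IDs listed in at least 1 library. They are the D-type cyclins Ccnd1, Ccnd2 and Ccnd3, their kinase partners Cdk4 and Cdk6, the E-type cyclins Ccne1 and Ccne2, the kinase inhibitors Cdkn1b and Cdkn2c, and the retinoblastoma gene Rb1. All 10 passed the filter on low values, a mean of at least 0.5 FPKM (mapped fragments scaled by transcript length and library size) over the 9 libraries, as did 13990 genes in all. The samples are E14 mouse embryonic stem cells (ESCs) of strain 129, either Hbxip-/- (KO) or wild type (WT). Each genotype was sampled in pluripotent culture, on day 4 after 96 h of LIF withdrawal, and as embryoid bodies, for which the labels give no time. LIF is the cytokine that keeps mouse ESCs undifferentiated in culture, and embryoid bodies are aggregates in which they begin to differentiate. Every culture has 2 KO libraries and 1 WT library. Hbxip, also named Lamtor5, encodes a subunit of Ragulator, a complex at the lysosome through which amino acids activate the growth kinase mTORC1.

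A cell enters S phase after G1 kinases have phosphorylated the retinoblastoma protein, which otherwise holds E2F transcription factors inactive. D-type cyclins bind CDK4 or CDK6 and start that phosphorylation in response to growth signals, and E-type cyclins with CDK2 carry it further. The INK4 proteins, p18 (Cdkn2c) among them, bind CDK4 and CDK6 directly, while p27 (Cdkn1b) acts mainly on CDK2 complexes. Mouse ESCs are usually described as having a short G1 phase with little D-type and much E-type cyclin activity. Their G1 is longer once they differentiate. Transcript levels, as given here, do not measure that activity.

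Rounded totals ran from 10147301 to 10863866 counts per library. The knockout itself rests on the labels, because Hbxip reads remained in KO libraries. Hbxip was at 31.0 and 29.1 FPKM in the KO libraries of pluripotent culture, against 40.7 FPKM in WT, and at 16.2 and 15.5 FPKM against 38.5 FPKM after LIF withdrawal. As embryoid bodies, cells had 23.0 and 18.3 FPKM of it in KO, against 41.8 FPKM in WT. The 7 ESC markers (Pou5f1, Sox2, Nanog, Zfp42, Esrrb, Utf1, Dppa5a) were detected in every library and summed to between 3469 and 4778 FPKM, most of it Dppa5a and Pou5f1. Of the 7, 1 rose and 3 fell in pluripotent KO cells, 4 rose and 1 fell after LIF withdrawal, and 3 rose and 1 fell in embryoid bodies. Among all genes tested, 25.5% rose and 26.3% fell in pluripotent KO cells. These shares were 18.4% and 17.4% after LIF withdrawal, and 19.4% and 17.7% in embryoid bodies. Esrrb was at 182 and 172 FPKM in KO after LIF withdrawal, against 69.5 FPKM in WT (log2 fold change 1.41, edgeR adjusted p = 6.82e-07), and at 217 and 207 FPKM in KO embryoid bodies, against 64.5 FPKM in WT (1.71, edgeR adjusted p = 2.34e-07). Zfp42 was higher in KO by 0.87 (edgeR adjusted p = 1.46e-05) and 0.79 (edgeR adjusted p = 3.15e-05) in these cultures. Both genes are among the markers that rose, and 1 other of the 7 fell in each of these cultures. Pou5f1 alone was at 648 FPKM or more in all 9 libraries, embryoid bodies included. The labels do not say whether the 2 KO libraries are separate clones or cultures, so the p-values cover no more than the spread of these libraries, which may be technical. With 1 WT library per culture, that library is assumed to vary like the KO pairs.

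In pluripotent culture KO cells held little Ccnd1 and almost no Ccnd2, while Ccnd3 and Cdk4, already the most abundant D-type cyclin and its more abundant partner, were higher than in WT. Of the 10 genes, 3 rose (Ccnd3, Cdk4, Cdkn2c) and 4 fell (Ccnd1, Ccnd2, Ccne2, Rb1), at an adjusted p below 0.05 in edgeR's quasi-likelihood test. Among all 13990 genes tested, 25.5% rose and 26.3% fell in that comparison. After LIF withdrawal 3 genes were higher in KO (Ccnd3, Cdkn1b, Cdkn2c) and 3 lower (Ccnd1, Ccnd2, Rb1), where 18.4% of all genes rose and 17.4% fell. In embryoid bodies 2 were higher (Cdk6, Cdkn1b) and 3 lower (Ccnd1, Ccnd2, Ccne1), where 19.4% of all genes rose and 17.7% fell. Ccnd1 and Ccnd2 were the members that passed the test as lower in KO in all 3 cultures. No member passed the test as higher in all 3. The share of all genes tested that passed in all 3 is not given here, so neither count has a background.

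**Figure D1:**
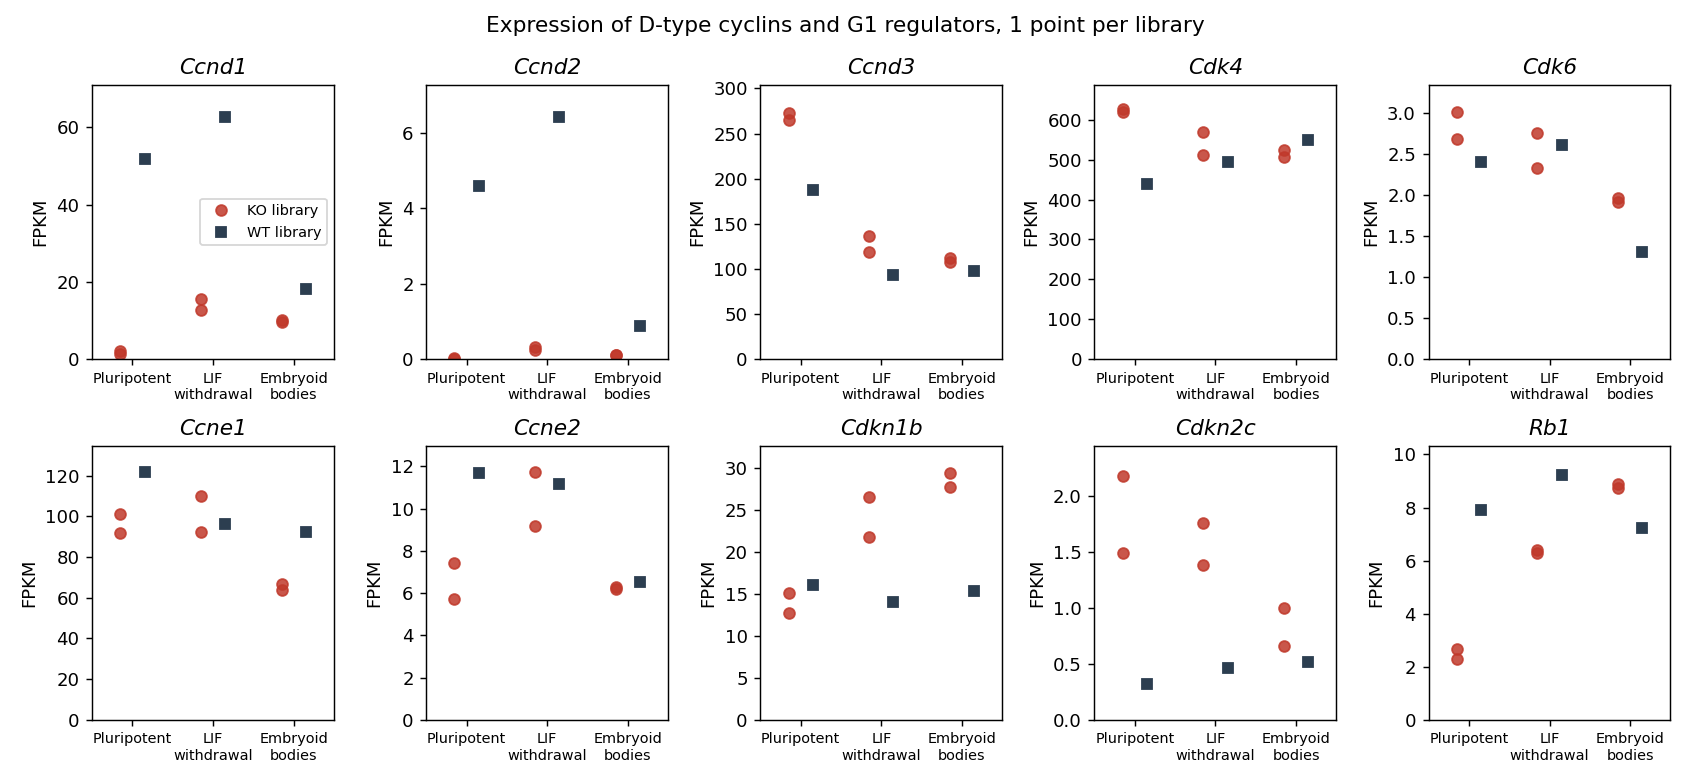
FPKM (y axis, linear from 0, a separate scale for each gene) of the 10 genes in the 3 cultures (x axis), with 1 circle per KO library and 1 square per WT library. Ccnd1 is below 2 FPKM in both KO libraries of pluripotent culture and at 51.7 FPKM in WT, and Cdkn1b lies above WT in both KO libraries after LIF withdrawal and in embryoid bodies.

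Ccnd1 encodes cyclin D1, the D-type cyclin most closely tied to mitogen and WNT signals. It was at 1.28 and 1.98 FPKM in the KO libraries of pluripotent culture, against 51.7 FPKM in WT. The values after LIF withdrawal were 12.6 and 15.6 FPKM in KO, against 62.7 FPKM in WT. Those in embryoid bodies were 10.2 and 9.51 FPKM in KO, against 18.1 FPKM in WT. Both KO libraries lay below WT in every culture, and the gap was widest in pluripotent culture. There Ccnd1 was 29.1-fold lower in KO (log2 fold change -4.86, SE 0.155, edgeR quasi-likelihood adjusted p = 3.94e-09), and it ranked 38 by size among the 7067 tested genes with a lower value in KO. After LIF withdrawal it was 4.27-fold lower (-2.10, SE 0.12, edgeR adjusted p = 1.68e-07), and in embryoid bodies 1.85-fold lower (-0.88, SE 0.136, edgeR adjusted p = 0.000325). Ordered by level, KO pluripotent culture averaged 1.63 ± 0.495 FPKM, KO embryoid bodies 9.85 ± 0.481 FPKM and KO LIF withdrawal 14.1 ± 2.09 FPKM (SD, n = 2 each), and all 3 WT libraries lay above these. Between the WT libraries of pluripotent culture and LIF withdrawal, neighbours at the top of that order, the difference did not pass the test (log2 fold change 0.31, SE 0.137, edgeR adjusted p = 0.141). In bulk RNA, fewer cells expressing a gene and less of its RNA in each cell cannot be told apart.

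Ccnd2 encodes cyclin D2 and was the least abundant D-type cyclin in every library. In pluripotent culture it had 2 counts in the first KO library and 0 in the second, against 284 counts (4.59 FPKM) in WT. The ratio of KO to WT was 0.00364, with a 95% counting interval from 0.000439 to 0.0133. Cyclin D2 transcripts were thus at the limit of detection in KO cells, where 3 counts are worth 0.290 and 0.296 CPM (counts scaled to library size). After LIF withdrawal Ccnd2 was at 0.33 and 0.24 FPKM in KO, against 6.42 FPKM in WT, which is 21.4-fold lower (log2 fold change -4.42, SE 0.254, edgeR adjusted p = 1.68e-07). In embryoid bodies it was at 0.12 and 0.10 FPKM in KO, against 0.88 FPKM in WT, and 8.11-fold lower (-3.02, SE 0.41, edgeR adjusted p = 0.000123). Both KO libraries lay far below WT in every culture, and the largest KO value of any culture was under the smallest WT value. In embryoid bodies, where 13 counts in all stood for KO, the log2 difference was -0.76 by limma on log2(FPKM + 1), still past the threshold (limma adjusted p = 0.00835).

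Ccnd3, which encodes cyclin D3, made up most of the D-type cyclin transcripts throughout. It was at 272 and 265 FPKM in the KO libraries of pluripotent culture, against 187 FPKM in WT. Cells without LIF had 136 and 118 FPKM of it in KO, against 93.2 FPKM in WT. Its values in embryoid bodies were 112 and 108 FPKM in KO, against 98.0 FPKM in WT. Every KO library was above its WT library, by a margin that narrowed over the 3 cultures. Ccnd3 was 1.56-fold higher in pluripotent KO cells (log2 fold change 0.64, SE 0.102, edgeR adjusted p = 0.000241) and 1.43-fold higher after LIF withdrawal (0.51, SE 0.105, edgeR adjusted p = 0.0023). The difference in embryoid bodies did not pass the test (0.16, SE 0.104, edgeR adjusted p = 0.252).

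Summed over the 3 D-type cyclins, KO libraries of pluripotent culture held more FPKM than the WT library, although they held little Ccnd1 and Ccnd2. The sums were 273.8 and 266.8 FPKM in the KO libraries of pluripotent culture, against 243.6 FPKM in WT. They were 149.3 and 134.2 FPKM in KO after LIF withdrawal, against 162.3 FPKM in WT. In embryoid bodies the sums were 122.8 and 117.2 FPKM in KO, against 117.0 FPKM in WT. The makeup of the sum also differed. Ccnd3 supplied 99.5% and 99.3% of it in the pluripotent KO libraries, against 76.9% in WT, and 91.3% and 88.2% after LIF withdrawal, against 57.4% in WT. In embryoid bodies its share was 91.6% and 91.8% in KO, against 83.8% in WT. Ccnd1 and Ccnd2 together came to 1.31 and 1.98 FPKM in pluripotent KO cells, against 56.3 FPKM in WT. These sums and shares are given as values, with no test.

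**Figure D2:**
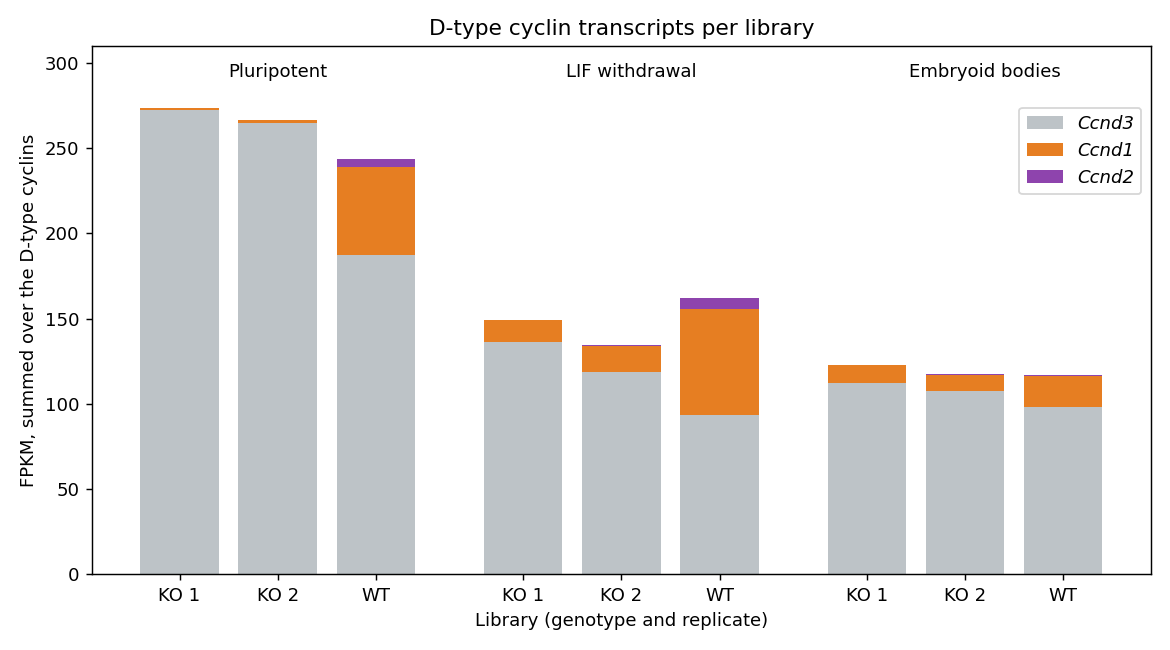
FPKM of Ccnd1, Ccnd2 and Ccnd3 stacked in 1 bar per library (y axis, linear from 0), with KO libraries left of WT in each culture (x axis). In pluripotent culture the KO bars reach 273.8 and 266.8 FPKM and are almost all Ccnd3, while the WT bar reaches 243.6 FPKM with 21.2% of it Ccnd1.

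Cdk4, the catalytic partner of D-type cyclins, was the most abundant of the 10 genes. It was at 621 and 628 FPKM in the KO libraries of pluripotent culture, against 439 FPKM in WT. After LIF withdrawal it was at 569 and 512 FPKM in KO, against 496 FPKM in WT, and in embryoid bodies at 507 and 526 FPKM in KO, against 551 FPKM in WT. Both KO libraries were above WT in the first 2 cultures and below it in embryoid bodies. Only the difference in pluripotent culture passed the test, at 1.55-fold higher (log2 fold change 0.63, SE 0.094, edgeR adjusted p = 0.000145). The differences after LIF withdrawal (0.19, SE 0.092, edgeR adjusted p = 0.136) and in embryoid bodies (-0.10, SE 0.091, edgeR adjusted p = 0.432) did not. Without the second KO library of LIF withdrawal, the difference there was 0.28 and passed (edgeR adjusted p = 0.0361).

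Cdk6, the other kinase that D-type cyclins bind, was scarce beside Cdk4. It was at 3.01 and 2.68 FPKM in the KO libraries of pluripotent culture, against 2.40 FPKM in WT, and at 2.76 and 2.33 FPKM after LIF withdrawal, against 2.61 FPKM in WT. Its embryoid body values were 1.92 and 1.96 FPKM in KO, against 1.31 FPKM in WT. The KO libraries stood on either side of WT after LIF withdrawal and above it in the other cultures. The embryoid body difference passed the test (1.48-fold higher, log2 fold change 0.56, SE 0.173, edgeR adjusted p = 0.0231). That call was lost without the first KO library (0.57, edgeR adjusted p = 0.0588), without the second (0.55, edgeR adjusted p = 0.0726) and with DESeq2 (adjusted p = 0.133). Cdk4 supplied between 99.5% and 99.8% of the summed Cdk4 and Cdk6 FPKM in the 9 libraries.

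Ccnd3 and Cdk4, the abundant members, rose together in pluripotent KO cells, and the inhibitor gene Cdkn1b was higher in KO in both differentiating cultures. The 250 bases before the start of each are shown, from RefSeq on build GRCm38.p6, 5′ to 3′ on the gene's strand. Among the 10 genes, 6 matched the RefSeq promoter table (Ccnd3, Cdk4, Cdk6, Ccne1, Cdkn1b, Cdkn2c), and Ccnd1, Ccnd2, Ccne2 and Rb1 did not. Capitals mark 4 motifs searched on both strands. The E-box CACGTG is bound by MYC-MAX dimers and by the TFEB family. The GC box of SP factors was searched as GGGCGG, so that on the opposite strand it reads as CCGCCC in the lines printed here. The site of E2F factors was searched as TTTCCCGC. The core of FOXO factors was searched as TGTTTAC.
Cdk4, chr10:127063285-127063534, plus strand: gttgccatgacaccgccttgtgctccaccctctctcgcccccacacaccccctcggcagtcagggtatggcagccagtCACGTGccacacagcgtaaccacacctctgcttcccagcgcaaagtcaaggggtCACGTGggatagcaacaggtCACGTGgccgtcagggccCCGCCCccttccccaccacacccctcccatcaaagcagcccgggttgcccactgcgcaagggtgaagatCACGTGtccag
Ccnd3, chr17:47593217-47593466, plus strand: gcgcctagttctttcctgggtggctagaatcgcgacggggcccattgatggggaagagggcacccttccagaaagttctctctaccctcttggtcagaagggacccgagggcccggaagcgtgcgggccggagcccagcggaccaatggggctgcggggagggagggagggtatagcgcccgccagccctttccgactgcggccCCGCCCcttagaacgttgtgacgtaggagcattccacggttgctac
Cdkn1b, chr6:134920151-134920400, plus strand: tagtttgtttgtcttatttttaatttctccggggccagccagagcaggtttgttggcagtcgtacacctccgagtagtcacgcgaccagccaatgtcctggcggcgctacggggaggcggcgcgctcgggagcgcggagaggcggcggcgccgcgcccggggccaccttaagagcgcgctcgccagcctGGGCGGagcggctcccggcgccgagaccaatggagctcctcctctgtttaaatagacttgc

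The Cdk4 window holds 4 CACGTG E-boxes, 172, 118, 98 and 11 bases before the start, and 1 GC box. Of all 32851 promoter windows of that length, 6.02% hold at least 1 such E-box and 7 windows (0.0213%) hold 4 or more. The Ccnd3 and Cdkn1b windows hold 1 GC box each, 46 and 61 bases before the start, and 32.7% of all windows hold at least 1. Neither window has CACGTG, and none of the 3 printed windows has the E2F or FOXO letters, which 0.895% and 3.17% of all windows hold. The other Ccnd3 window in the table, upstream of other transcripts of the gene, has 2 GC boxes and 1 TGTTTAC. Among the other members with a window, Cdk6 has 1 E-box, Ccne1 has 4 GC boxes and Cdkn2c has 3 in 1 of its windows. These matches describe letters, not binding.

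Ccne1 encodes cyclin E1, which drives CDK2 at the entry into S phase. It was at 101 and 91.8 FPKM in the KO libraries of pluripotent culture, against 122 FPKM in WT, and at 110 and 92.2 FPKM after LIF withdrawal, against 96.4 FPKM in WT. In embryoid bodies it was at 63.7 and 66.9 FPKM in KO, against 92.3 FPKM in WT. The KO libraries were below WT in pluripotent culture and embryoid bodies and on both sides of it after LIF withdrawal. In embryoid bodies Ccne1 fell in KO by 0.51 on the log2 scale (1.42-fold lower, SE 0.12, edgeR adjusted p = 0.00569). The other differences did not pass, at -0.21 (SE 0.118, edgeR adjusted p = 0.151) in pluripotent culture and 0.13 (SE 0.12, edgeR adjusted p = 0.426) after LIF withdrawal.

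Ccne2, for cyclin E2, gave between 5.33% and 11.3% of the summed E-type cyclin FPKM. It was at 5.70 and 7.44 FPKM in the KO libraries of pluripotent culture, against 11.7 FPKM in WT, and fell there (1.64-fold lower, log2 fold change -0.71, SE 0.169, edgeR adjusted p = 0.00381). Without LIF it was at 9.17 and 11.7 FPKM in KO, against 11.2 FPKM in WT, and in embryoid bodies at 6.18 and 6.30 FPKM in KO, against 6.51 FPKM in WT. Neither difference passed, with log2 values of -0.03 (SE 0.165, edgeR adjusted p = 0.902) and -0.06 (SE 0.184, edgeR adjusted p = 0.817). The calls thus fell on Ccne2 in pluripotent cells and on Ccne1 in embryoid bodies, and whether the genes differ in this was not tested.

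Cdkn1b, which encodes p27, was at 12.8 and 15.1 FPKM in the KO libraries of pluripotent culture, against 16.0 FPKM in WT. After LIF withdrawal it was at 21.9 and 26.6 FPKM in KO, against 14.1 FPKM in WT. In embryoid bodies it was at 27.8 and 29.4 FPKM in KO, against 15.3 FPKM in WT. The WT libraries stayed between 14.1 and 16.0 FPKM, while the KO libraries of both differentiating cultures lay above every WT library. Cdkn1b was 1.79-fold higher in KO after LIF withdrawal (log2 fold change 0.84, SE 0.133, edgeR adjusted p = 0.000384) and 1.86-fold higher in embryoid bodies (0.89, SE 0.132, edgeR adjusted p = 0.000229). In pluripotent culture no difference passed (-0.08, SE 0.135, edgeR adjusted p = 0.647). The ratio of Cdkn1b FPKM to the summed D-type cyclin FPKM, given as a value with no test, was 0.0466 and 0.0567 in KO pluripotent culture, against 0.0658 in WT. It was 0.146 and 0.198 in KO after LIF withdrawal, against 0.0868 in WT, and 0.226 and 0.251 in KO embryoid bodies, against 0.131 in WT.

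Cdkn2c, for the INK4 inhibitor p18, was scarce in all libraries. It was at 1.49 and 2.18 FPKM in the KO libraries of pluripotent culture, against 0.32 FPKM in WT, and at 1.39 and 1.76 FPKM after LIF withdrawal, against 0.46 FPKM in WT. In embryoid bodies it was at 0.66 and 1.0 FPKM in KO, against 0.52 FPKM in WT. All KO libraries lay above the WT library of their culture. It was 5.93-fold higher in pluripotent KO cells (log2 fold change 2.57, SE 0.512, edgeR adjusted p = 0.0012) and 3.45-fold higher after LIF withdrawal (1.79, SE 0.483, edgeR adjusted p = 0.0121), and the embryoid body difference did not pass (0.97, SE 0.537, edgeR adjusted p = 0.179). These folds rest on few counts, 32 and 43 in KO against 7 in WT in pluripotent culture. After LIF withdrawal the counts were 31 and 37 in KO, against 10 in WT. With DESeq2 the call after LIF withdrawal was lost (adjusted p = 0.142), and on log2(FPKM + 1) the 2 called differences shrank to 1.09 and 0.81.

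Rb1 encodes the retinoblastoma protein, the substrate of these kinases. It was at 2.30 and 2.68 FPKM in the KO libraries of pluripotent culture, against 7.90 FPKM in WT. After LIF withdrawal it was at 6.30 and 6.41 FPKM in KO, against 9.22 FPKM in WT, and in embryoid bodies at 8.88 and 8.73 FPKM in KO, against 7.23 FPKM in WT. KO libraries were below WT in the first 2 cultures and above it in embryoid bodies. Rb1 was 2.91-fold lower in pluripotent KO cells (log2 fold change -1.54, SE 0.132, edgeR adjusted p = 2.07e-06) and 1.39-fold lower after LIF withdrawal (-0.48, SE 0.12, edgeR adjusted p = 0.0081). The second of these did not pass with DESeq2 (adjusted p = 0.131). In embryoid bodies the difference was 0.28 (SE 0.122, edgeR adjusted p = 0.0931).

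**Figure D3:**
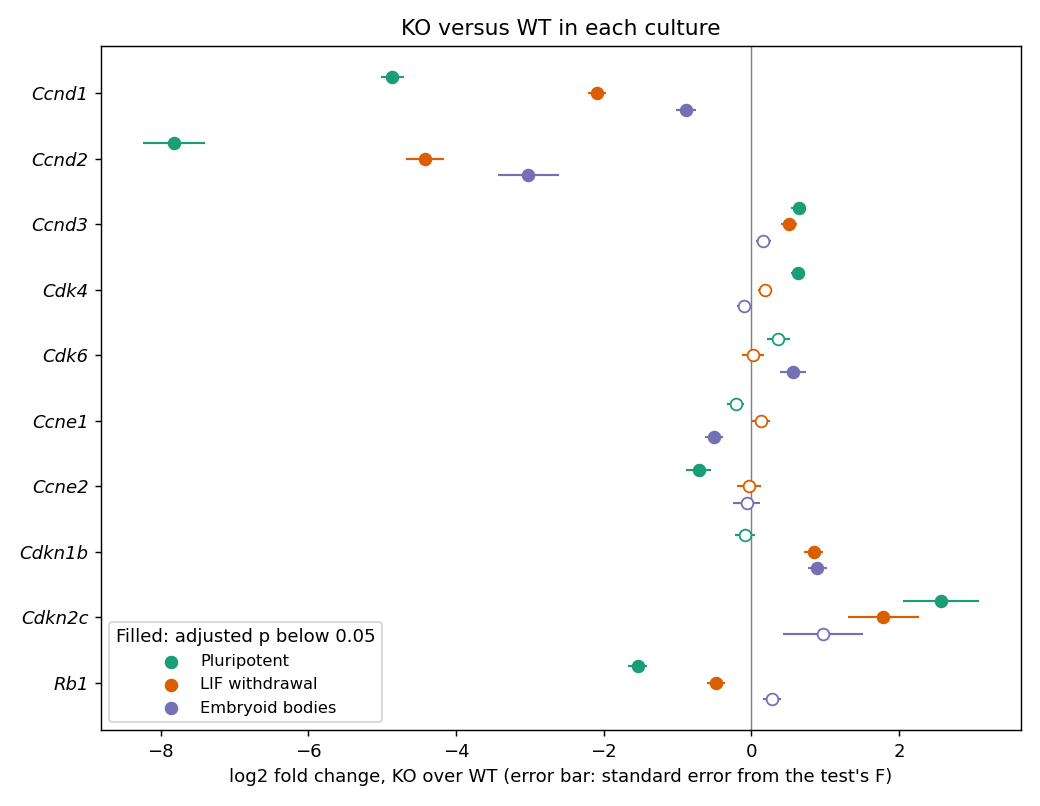
Log2 fold change of KO over WT (x axis) for each gene (y axis) in the 3 cultures, with bars of 1 standard error and filled points for an adjusted p below 0.05 in edgeR's quasi-likelihood test. Ccnd1 and Ccnd2 are the furthest below 0, from -4.86 to -0.88 for Ccnd1. The fitted Ccnd2 value in pluripotent culture rests on 2 counts in KO and is not a measured fold.

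Some reads of these genes could belong to a neighbour, because the strandedness of the libraries is not given in the sources used here. In the GENCODE annotation of GRCm38, the share of a member's exonic bases that a gene on the opposite strand also covers is 23.4% for Ccnd1 (LTO1), 19.7% for Cdk4 (Tspan31) and 17.4% for Ccne2 (Ints8). It is 8.11% and 6.78% for Rb1 (Rcbtb2 and Lpar6) and at most 4.11% for Ccnd3, Ccnd2 and Cdk6. LTO1 had between 80 and 99 counts in every library and Ccnd1 between 51 and 2548. In the pluripotent KO libraries Ccnd1 had 51 and 77 counts, and LTO1 had 80 and 86. How many of those Ccnd1 counts come from reads of LTO1 was not tested. LTO1, Tspan31 and Ints8 passed the test in no KO versus WT comparison. Lpar6 was higher in pluripotent KO cells (log2 fold change 1.01, edgeR adjusted p = 0.00412), where Rb1 was lower. It was lower in KO embryoid bodies (-1.11, edgeR adjusted p = 0.000769). Bysl, which overlaps Ccnd3, was higher in pluripotent KO cells by 0.41 (edgeR adjusted p = 0.00463). Rcbtb2 was lower in KO after LIF withdrawal (-0.49, edgeR adjusted p = 0.0147), as Rb1 was, and in embryoid bodies (-0.71, edgeR adjusted p = 0.00233).

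Ccnd1, Cdkn1b and Rb1 rose with LIF withdrawal in KO cells, and Ccnd3 fell in both genotypes. In KO, 5 members rose between pluripotent culture and LIF withdrawal (Ccnd1, Ccnd2, Ccne2, Cdkn1b, Rb1) and 2 fell (Ccnd3, Cdk4), where 30.2% of all genes tested rose and 29.0% fell. In WT 0 rose and 1 fell (Ccnd3), where 11.6% of all genes rose and 8.90% fell. DESeq2 also called 0 as higher in WT, and 2 members were higher at an unadjusted p below 0.05 in edgeR's quasi-likelihood test. These WT contrasts compare 1 library with 1 library and have larger standard errors than the KO contrasts. Ccnd1 rose 8.42-fold in KO (log2 fold change 3.07, SE 0.154, edgeR adjusted p = 2.32e-08). Ccnd2 had 36 counts over the KO libraries of LIF withdrawal and 2 over those of pluripotent culture, a ratio of 17.1 with a 95% counting interval from 4.39 to 146. Rb1 rose 2.49-fold in KO (1.31, SE 0.116, edgeR adjusted p = 1.49e-06) and Cdkn1b 1.70-fold (0.76, SE 0.107, edgeR adjusted p = 6.54e-05). Ccnd3 fell in both genotypes, 2.16-fold in KO (-1.11, SE 0.083, edgeR adjusted p = 4.05e-07) and 1.97-fold in WT (-0.98, SE 0.119, edgeR adjusted p = 0.000135). The fall of Cdk4 in KO (-0.24, SE 0.075, edgeR adjusted p = 0.014) was lost without the first KO library of pluripotent culture (-0.24, edgeR adjusted p = 0.0527) and without the second of LIF withdrawal (-0.15, edgeR adjusted p = 0.133).

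In embryoid bodies against pluripotent culture, 4 members rose in KO (Ccnd1, Ccnd2, Cdkn1b, Rb1) and 5 fell (Ccnd3, Cdk4, Cdk6, Ccne1, Cdkn2c), where 31.0% of all genes rose and 30.0% fell. In WT, 1 member rose (Cdk4) and 6 fell (Ccnd1, Ccnd2, Ccnd3, Cdk6, Ccne1, Ccne2), where 19.7% of all genes rose and 18.9% fell. Ccnd1 went in opposite directions: it rose 5.6-fold in KO (log2 fold change 2.49, SE 0.161, edgeR adjusted p = 1.37e-07) and fell 2.82-fold in WT (-1.49, SE 0.147, edgeR adjusted p = 1.26e-05). Ccnd2 fell 5.15-fold in WT (-2.37, SE 0.28, edgeR adjusted p = 5.19e-05), while in KO it had 13 counts over the embryoid body libraries and 2 over those of pluripotent culture, a ratio of 6.38 with a 95% counting interval from 1.44 to 58.2. The Ccnd2 rise in KO was lost without the second pluripotent KO library (1.51), without the first embryoid body library (2.30) and without the second (2.56). It was also lost with DESeq2 (2.56, adjusted p = 0.0573). With limma it was lost on log2(FPKM + 1) (0.13, limma adjusted p = 0.357) and on log2(FPKM + 0.1) (0.88, limma adjusted p = 0.0604). Cdk4 fell in KO (-0.38, SE 0.075, edgeR adjusted p = 0.000778) and rose in WT (0.35, SE 0.106, edgeR adjusted p = 0.0217). Ccnd3 fell 2.63-fold in KO (-1.39, SE 0.084, edgeR adjusted p = 7.81e-08) and 1.88-fold in WT (-0.91, SE 0.119, edgeR adjusted p = 0.000109). Rb1 rose 3.27-fold in KO (1.71, SE 0.113, edgeR adjusted p = 1.53e-07), against a change of -0.11 in WT (SE 0.141, edgeR adjusted p = 0.574).

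Among the smaller embryoid body changes, Cdk6 fell in KO by 0.66 and in WT by 0.86 on the log2 scale, with edgeR adjusted p of 0.000746 in KO and 0.00409 in WT. Ccne1 fell in KO by 0.67 (edgeR adjusted p = 9.44e-05) and in WT by 0.38 (edgeR adjusted p = 0.0448). The WT call of Ccne1 was lost without the first KO embryoid body library and without the second, which are not part of that comparison and enter through the shared spread. It was also lost with DESeq2 (adjusted p = 0.0891) and with edgeR on DESeq2's size factors (edgeR adjusted p = 0.0512). With limma it was lost on log2(FPKM + 1) (limma adjusted p = 0.0628) and on log2(FPKM + 0.1) (limma adjusted p = 0.071). Cdkn2c fell in KO by 1.19 (edgeR adjusted p = 0.00863). That call was lost without the second pluripotent KO library (-0.97), without the first embryoid body library (-0.92) and with DESeq2 (-1.20, adjusted p = 0.129). All of these comparisons share the pluripotent libraries of their genotype.

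**Figure D4:**
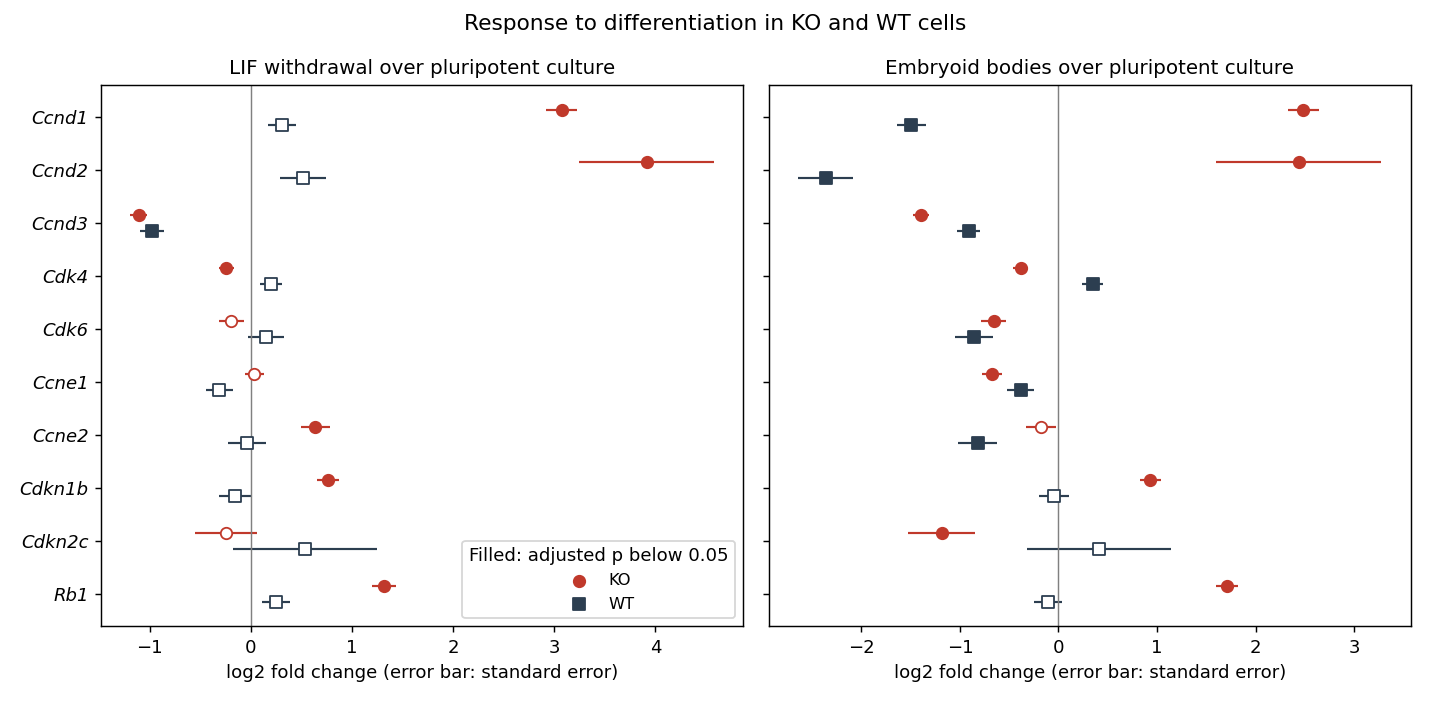
Log2 fold change (x axis) of LIF withdrawal and of embryoid bodies over pluripotent culture for each gene (y axis), with circles for KO, squares for WT, bars of 1 standard error and filled symbols for an adjusted p below 0.05 in edgeR's quasi-likelihood test. Ccnd1 in embryoid bodies lies at 2.49 in KO and at -1.49 in WT. The fitted KO values of Ccnd2 rest on 2 counts in pluripotent culture.

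The difference between the KO and the WT response was tested directly, as the log2 response in KO minus that in WT. For LIF withdrawal it passed for 6 members, higher in KO for Ccnd1, Ccnd2, Ccne2, Cdkn1b and Rb1 and lower for Cdk4, where 17.5% of all genes were higher and 14.9% lower. For embryoid bodies it passed for 6 members, higher in KO for Ccnd1, Ccnd2, Cdkn1b and Rb1 and lower for Ccnd3 and Cdk4, where 22.4% of all genes were higher and 19.5% lower. For Ccnd1 the difference was 2.77 after LIF withdrawal (SE 0.213, edgeR adjusted p = 5.91e-06) and 3.98 in embryoid bodies (SE 0.219, edgeR adjusted p = 4.07e-07). For Rb1 it was 1.07 (SE 0.181, edgeR adjusted p = 0.000958) and 1.82 (SE 0.181, edgeR adjusted p = 1.97e-05) in these cultures. Cdkn1b responded more in KO by 0.92 after LIF withdrawal (SE 0.189, edgeR adjusted p = 0.00313) and by 0.97 in embryoid bodies (SE 0.188, edgeR adjusted p = 0.00154). Ccnd3 was not found to respond differently after LIF withdrawal (-0.13, SE 0.144, edgeR adjusted p = 0.522). These differences and the KO versus WT differences in pluripotent culture use the same libraries and are not separate evidence.

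Of 5 other CDK inhibitors, 1 rose and 1 fell in pluripotent KO cells, 0 rose and 1 fell after LIF withdrawal, and 2 rose and 2 fell in embryoid bodies. Their median log2 difference was -0.12, -0.15 and -0.44 in these cultures, in that order. The counts of this and the other network lists stand beside 25.5% higher and 26.3% lower among all genes tested in pluripotent culture, 18.4% and 17.4% after LIF withdrawal, and 19.4% and 17.7% in embryoid bodies. Cdkn1c, for p57, fell in pluripotent culture, to 3.28 and 3.55 FPKM in KO, against 12.97 FPKM in WT (log2 fold change -1.80, SE 0.192, edgeR adjusted p = 1.11e-05). It also fell in embryoid bodies (-1.07, SE 0.204, edgeR adjusted p = 0.00141), and its difference after LIF withdrawal did not pass (-0.15, edgeR adjusted p = 0.564). Cdkn1a, for p21, was lower in KO after LIF withdrawal, a culture in which Cdkn1b was higher, at 20.6 and 19.4 FPKM in KO, against 48.5 FPKM in WT (-1.22, SE 0.146, edgeR adjusted p = 4.37e-05). Cdkn2a, which encodes the INK4 protein p16 and ARF, was higher in KO embryoid bodies, at 11.2 and 12.3 FPKM, against 3.66 FPKM in WT (1.67, SE 0.261, edgeR adjusted p = 0.000361). In embryoid bodies Cdkn1a was lower in KO as well (-0.67, edgeR adjusted p = 0.00223), and Cdkn2d was higher (0.81, SE 0.205, edgeR adjusted p = 0.00842). The Cdkn2d call was lost with DESeq2 (adjusted p = 0.129) and without the first KO embryoid body library (0.68). The inhibitors thus moved in both directions, with Cdkn1b, Cdkn2a and Cdkn2d higher and Cdkn1a and Cdkn1c lower in KO embryoid bodies.

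Among 12 other pocket proteins, E2F and DP factors, 3 rose and 6 fell in pluripotent KO cells, 4 rose and 3 fell after LIF withdrawal, and 4 rose and 5 fell in embryoid bodies. Their medians were -0.40, 0.06 and -0.01 in these cultures. E2f7, a repressor of the family, was lower in KO in all 3 cultures, at 3.15 and 3.25 FPKM in pluripotent KO cells, against 8.90 FPKM in WT (log2 fold change -1.35, SE 0.118, edgeR adjusted p = 2.4e-06). E2f2, an activator, was higher in KO in all 3 cultures. After LIF withdrawal it was at 7.73 and 6.22 FPKM in KO, against 3.05 FPKM in WT (1.21, SE 0.166, edgeR adjusted p = 0.000126). Tfdp1, the main partner that E2F proteins need to bind DNA, was lower in KO in all 3 cultures. In embryoid bodies it was at 40.8 and 42.3 FPKM in KO, against 76.4 FPKM in WT (-0.89, SE 0.08, edgeR adjusted p = 5.41e-06). Rbl2, the pocket protein p130, was lower in pluripotent KO cells (-0.59, edgeR adjusted p = 0.00598) and higher in KO embryoid bodies (0.55, edgeR adjusted p = 0.0158). After LIF withdrawal it differed by -0.47 (edgeR adjusted p = 0.0282). That call was lost without the first KO library of LIF withdrawal (-0.46), without the second (-0.49) and with DESeq2 (adjusted p = 0.297).

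Of 24 S phase genes that E2F factors drive, 4 rose and 6 fell in pluripotent KO cells, 7 rose and 0 fell after LIF withdrawal, and 6 rose and 3 fell in embryoid bodies. Their median log2 difference was -0.07 in pluripotent cells, 0.16 after LIF withdrawal and 0.10 in embryoid bodies, beside -0.01, 0.00 and 0.00 for all genes tested. Gins2, a part of the replicative helicase, was higher in pluripotent KO cells (log2 fold change 1.11, SE 0.112, edgeR adjusted p = 7.3e-06), and Pola1, the catalytic subunit of DNA polymerase alpha, was lower (-1.002, SE 0.088, edgeR adjusted p = 2.51e-06). Of 20 G2 and mitosis genes, 9 rose and 4 fell in pluripotent KO cells, 14 rose and 0 fell after LIF withdrawal, and 9 rose and 0 fell in embryoid bodies. Their median was 0.15, 0.40 and 0.17 in these cultures. Mybl2, which activates mitotic genes, was higher in KO in all 3 cultures. It was at 314 and 311 FPKM in KO after LIF withdrawal, against 160 FPKM in WT (1.03, SE 0.093, edgeR adjusted p = 4.85e-06).

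**Figure D5:**
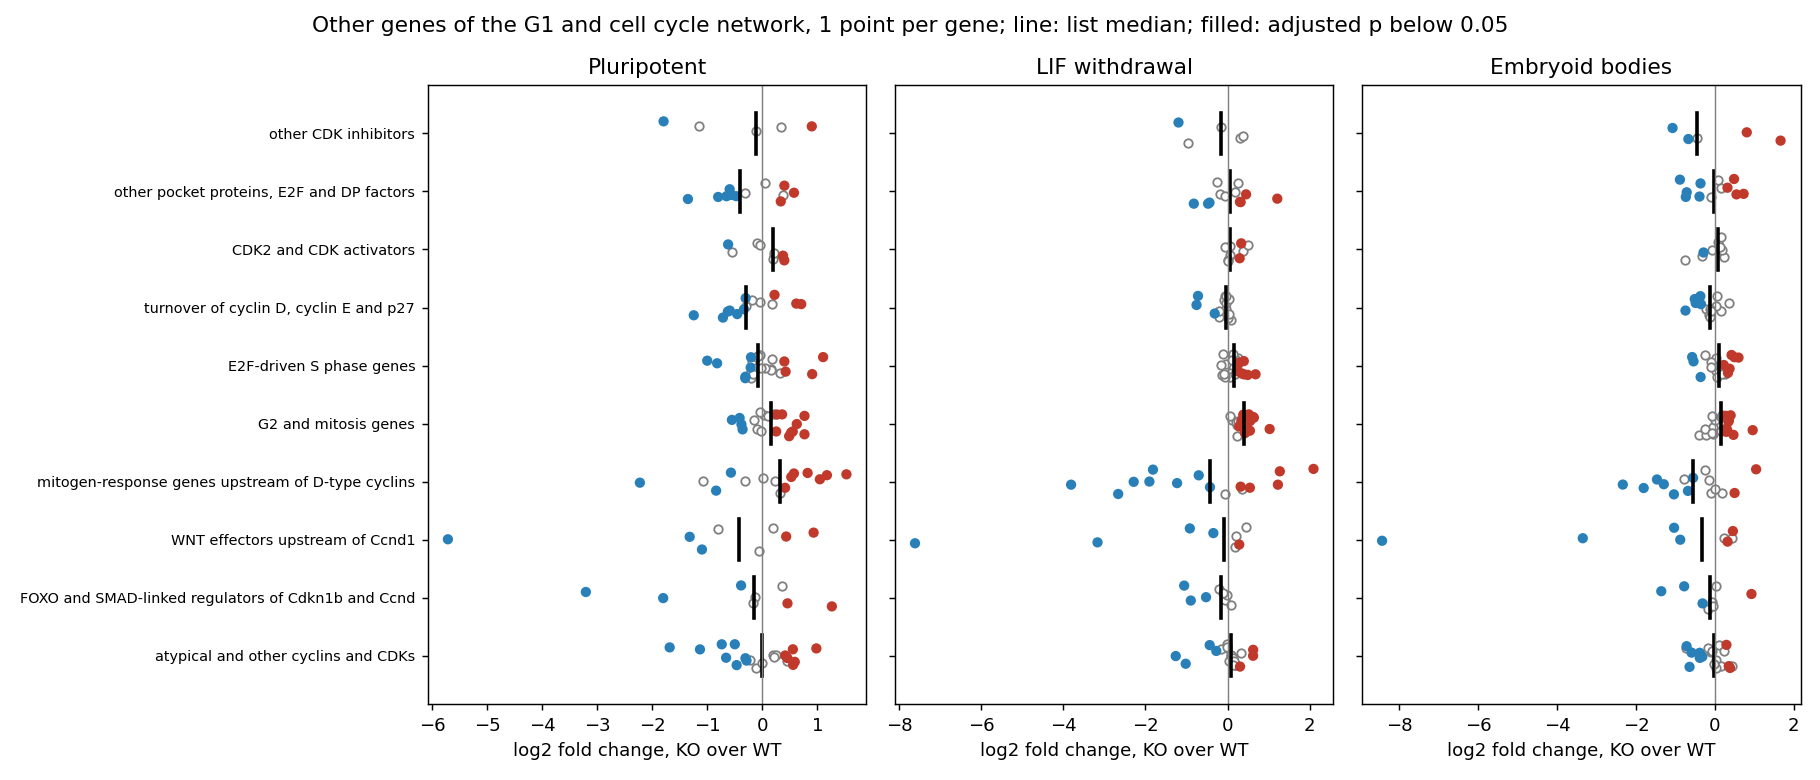
Log2 fold change of KO over WT (x axis) of the other genes of the G1 and cell cycle network, 1 point per gene in 10 lists (y axis), 1 panel per culture, with filled points for an adjusted p below 0.05 in edgeR's quasi-likelihood test and a line at each list's median. The G2 and mitosis genes have a median of 0.40 after LIF withdrawal, and the WNT effectors hold the lowest points.

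Of CDK2 and its activators, 2 of 9 rose and 1 fell in pluripotent KO cells, 2 rose and 0 fell after LIF withdrawal, and 0 rose and 1 fell in embryoid bodies, with medians of 0.19, 0.06 and 0.08. Cdc25a, the phosphatase that switches CDK2 on, was lower in pluripotent KO cells, at 20.04 and 19.8 FPKM, against 33.4 FPKM in WT (log2 fold change -0.62, SE 0.086, edgeR adjusted p = 8.52e-05). Of 14 tested genes that control the turnover of cyclin D, cyclin E and p27, 3 rose and 7 fell in pluripotent KO cells, 0 rose and 3 fell after LIF withdrawal, and 0 rose and 5 fell in embryoid bodies, with medians of -0.30, -0.05 and -0.13. Skp2, which marks p27 for destruction, was lower in pluripotent KO cells, at 13.9 and 15 FPKM, against 25.8 FPKM in WT (-0.72, SE 0.097, edgeR adjusted p = 7.1e-05), and its cofactor Cks1b was higher (0.71, SE 0.128, edgeR adjusted p = 0.000594). Usp2, a deubiquitinase of cyclin D1, was lower in pluripotent KO cells (-1.25, SE 0.183, edgeR adjusted p = 0.000132). Skp1, the adaptor of the SCF ligases, was lower in KO in all 3 cultures. After LIF withdrawal it was at 108 and 116 FPKM in KO, against 192.5 FPKM in WT (-0.72, SE 0.085, edgeR adjusted p = 3.8e-05). Among 21 tested atypical and other cyclins and CDKs, 6 rose and 8 fell in pluripotent KO cells, 3 rose and 4 fell after LIF withdrawal, and 3 rose and 6 fell in embryoid bodies, with medians of 0.00, 0.09 and -0.01.

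Genes that lie upstream of the D-type cyclins moved in different directions. Of 15 tested mitogen-response genes, 7 rose and 3 fell in pluripotent KO cells, 5 rose and 8 fell after LIF withdrawal, and 2 rose and 7 fell in embryoid bodies, with medians of 0.32, -0.43 and -0.55. Mycn, the MYC family member prominent in ESCs, was lower in KO throughout, at 5.53 and 6.58 FPKM after LIF withdrawal, against 88.8 FPKM in WT (log2 fold change -3.81, SE 0.113, edgeR adjusted p = 1.73e-09). Myc itself was higher in that culture, at 63.2 and 52.0 FPKM in KO, against 25.7 FPKM in WT (1.23, edgeR adjusted p = 1.59e-05); it is named after its values were seen. Dusp6 and Etv4, targets of ERK signalling, were higher in pluripotent KO cells by 1.53 (SE 0.139, edgeR adjusted p = 3.21e-06) and 1.18 (SE 0.101, edgeR adjusted p = 2.07e-06), the culture in which Ccnd1 was lowest in KO. Etv5, another such target, was lower in that culture (-0.84, edgeR adjusted p = 4.91e-06), and Dusp6 was lower in KO embryoid bodies (-1.04, edgeR adjusted p = 2.88e-05).

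Of 8 WNT effectors, 2 rose and 3 fell in pluripotent KO cells, 1 rose and 4 fell after LIF withdrawal, and 2 rose and 4 fell in embryoid bodies, with medians of -0.43, -0.09 and -0.33. Lef1, a DNA-binding partner of beta-catenin, was at 0.08 and 0.26 FPKM in pluripotent KO cells, against 9.47 FPKM in WT (log2 fold change -5.72, SE 0.388, edgeR adjusted p = 3.22e-07). Axin2, a direct WNT target, was at 2.5 and 2.16 FPKM there, against 6.35 FPKM in WT (-1.32, SE 0.151, edgeR adjusted p = 1.84e-05). Sp5, another direct target, had 1 count over the KO embryoid body libraries and 215 counts in WT, a ratio of 0.0023 with a 95% counting interval from 5.8e-05 to 0.013. In pluripotent culture Sp5 did not pass, at 0.05 and 0.18 FPKM in KO, against 0.22 FPKM in WT (-0.80, edgeR adjusted p = 0.496). The 2 effectors that rose in that culture were Tcf7l2 (0.93, edgeR adjusted p = 0.00217) and Tcf7l1 (0.43, edgeR adjusted p = 0.00641). Of 8 FOXO and SMAD-linked regulators of Cdkn1b and the D-type cyclins, 2 rose and 3 fell in pluripotent KO cells, 0 rose and 3 fell after LIF withdrawal, and 1 rose and 3 fell in embryoid bodies, with medians of -0.15, -0.15 and -0.13. Foxo3, which can activate Cdkn1b, was at 7.30 and 7.11 FPKM in pluripotent KO cells, against 27.4 FPKM in WT (-1.80, SE 0.102, edgeR adjusted p = 7.77e-08). After LIF withdrawal, where Cdkn1b was higher in KO, Foxo3 was at 34.0 and 32.7 FPKM in KO, against 32.6 FPKM in WT (0.09, edgeR adjusted p = 0.465). It was at 20.1 FPKM in both KO libraries of embryoid bodies, against 10.5 FPKM in WT (0.93, SE 0.108, edgeR adjusted p = 3.71e-05). The counts of 0 in these lists were also 0 with DESeq2. At an unadjusted p below 0.05 in edgeR's quasi-likelihood test they were 0 too, except for 1 gene of the CDK2 list higher in KO embryoid bodies and 3 G2 and mitosis genes lower there.

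Other genes followed the D-type cyclins closely over the 9 libraries, by Pearson's r of log2(FPKM + 1) among genes with a mean of at least 5 FPKM and a range of at least 1. Each r is a description over libraries that share genotype and culture. The nearest to Ccnd1 of 2940 candidates were Dusp16 (r = 0.991), Isoc1 (r = 0.99), Gart (r = 0.988) and Gne (r = 0.984). Gart, an enzyme of purine synthesis, was at 71.7 and 75.5 FPKM in pluripotent KO cells, against 171 FPKM in WT. The nearest to Ccnd2 were Fkbp10 (r = 0.973), Psat1 (r = 0.972), Lrrc28 (r = 0.965) and Dmtn (r = 0.962). Psat1, an enzyme of serine synthesis, was at 36.9 and 37.8 FPKM in pluripotent KO cells, against 166 FPKM in WT. The nearest to Ccnd3 were Krt42 (r = 0.987), Pcolce (r = 0.985), Noct (r = 0.984) and Slc10a1 (r = 0.982). Pcolce, a collagen-processing enhancer, was at 178 and 168 FPKM in pluripotent KO cells, against 88.5 FPKM in WT.

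Markers of other cell types moved with some of these comparisons. The 7 primitive streak and mesoderm markers summed to 12.3 and 15.8 FPKM in KO after LIF withdrawal, against 45.8 FPKM in WT, and to 16.4 and 16.1 FPKM in KO embryoid bodies, against 72.1 FPKM in WT. T, a defining gene of the streak, was at 0.05 and 0.18 FPKM in KO embryoid bodies, against 24.0 FPKM in WT, and Gsc was at 0 in both KO libraries there. Of the 6 tested, 1 rose and 4 fell in KO after LIF withdrawal, where 18.4% of all genes rose and 17.4% fell. In embryoid bodies 1 rose and 5 fell, where 19.4% of all genes rose and 17.7% fell. The gene that rose was Kdr, which was higher in KO in all 3 cultures (log2 fold changes 1.93, 2.48 and 1.48, with edgeR adjusted p of 0.00107, 0.00106 and 0.0209). In pluripotent culture these markers summed to 5.20 and 5.46 FPKM in KO, against 7.12 FPKM in WT, and the 8 extraembryonic endoderm markers to 26.7 and 20.7 FPKM in KO, against 7.31 FPKM in WT, with Amn giving 22.3 and 17.5 FPKM in KO, against 1.78 FPKM in WT. Of the 5 extraembryonic endoderm markers tested there, 2 rose (Amn and Gata6) and 2 fell, with Sox7 at -1.84 (edgeR adjusted p = 0.00072) and Dab2 at -1.16 (edgeR adjusted p = 0.000798). Among all genes tested in pluripotent culture, 25.5% rose and 26.3% fell. Over all libraries the 7 fibroblast feeder markers summed to between 6.06 and 36.3 FPKM, most of it Thy1, and the 6 neuroectoderm markers to between 3.70 and 15.4 FPKM. The feeder markers summed to less in KO than in WT in every culture. In pluripotent culture they summed to 16.9 and 21.2 FPKM in KO, against 36.3 FPKM in WT. The sums were 6.06 and 7.79 FPKM, against 15.25 FPKM, after LIF withdrawal and 20.4 and 21.6 FPKM, against 31.6 FPKM, in embryoid bodies. Of the 2 tested, 0 rose, and 2, 2 and 1 fell in KO in these cultures, in that order. Within the neuroectoderm list Sox1 was higher in KO, at 8.99 and 8.82 FPKM after LIF withdrawal, against 0.37 FPKM in WT (4.64, edgeR adjusted p = 1.05e-06), and Nes was lower, at 1.43 and 1.60 FPKM, against 12.8 FPKM in WT (-3.01, edgeR adjusted p = 5.82e-08). In embryoid bodies Sox1 differed by 3.86 (edgeR adjusted p = 3.51e-05) and Nes by -2.32 (edgeR adjusted p = 1.41e-06). The part of these cells, and of the ESC marker differences, in the values of the G1 regulators was not tested.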

How the data were processed

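The selection of RNA, the strandedness, the quantifier and the annotation are not given in the sources used here. Illumina libraries were made from column-purified total RNA, per the labels' protocols. The submitters' processing notes name Bowtie2 and the mouse build mm8. The authors deposited 1 table per library, with 2 values per gene by the file headers: an expected count, which is estimated and can be fractional, and an FPKM value. Of the deposited expected counts, 78.0% to 78.4% lay within 0.005 of a whole number. The counts were rounded, and a gene missing from a library's table was taken as 0 there. Of 20287 gene IDs, 20234 matched the RefSeq table of GRCm38 by gene ID and 9 by accession, for names only, and 44 had no match. Rounded totals ran from 10147301 to 10863866 per library, so that 3 counts are worth 0.276 to 0.296 CPM. Intervals at a 95% level and such floors cover counting error only.

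Tests were run with edgeR 4.0.16 (glmQLFit and glmQLFTest, TMM factors between 0.94 and 1.04) in R 4.3.3 on the 13990 genes with a mean of at least 0.5 FPKM. All 9 libraries were fitted together with 6 group means, 1 per genotype and culture. The KO pairs give its 3 residual degrees of freedom, and the common coefficient of variation was 6.52%. A gene was called at an adjusted p below 0.05 (Benjamini-Hochberg over all 13990 genes within 1 of 9 comparisons). Standard errors were derived as the absolute log2 fold change divided by the root of F, and may understate the error at few counts. Where a group had 1 to 3 counts, the count ratio is printed with its exact binomial interval. Chi-square per degree of freedom between the KO libraries of a culture was 3.34, 4.60 and 3.00, above counting noise, so neither was taken for a second deposit of the other. This does not show separate cultures or clones, since library preparation alone can exceed counting noise. Alternatives were DESeq2 1.42.0, edgeR with its size factors, no filter, limma 3.58.1 on log2(FPKM + 1) and on log2(FPKM + 0.1), a replicate block, and leaving out each of the 9 libraries. The fit was also run on simulated data in which all libraries, WT included, were given the same spread. That run cannot check the assumption that a WT library varies like the KO pairs.

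The members, the 10 network lists (140 genes) and the 5 marker lists were chosen with earlier results of these data known. From each network list, the text takes from among up to 3 called genes per KO versus WT comparison, those with the largest change and both KO libraries on the same side of WT. It also names genes and cultures outside that rule, such as Etv5 in pluripotent cells and Dusp6 in embryoid bodies, with their values known. Promoter windows of 250 bases came from RefSeq on GRCm38.p6, and exon overlaps from GENCODE M21. No coordinates are given for mm8.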

Additional observations from a re-analysis of the deposited data

Results flagged for a closer look

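The response to LIF withdrawal or in embryoid bodies differed between KO and WT cells, by a test of the difference itself (edgeR's quasi-likelihood test, log2 response in KO minus log2 response in WT), for these members. For Ccnd1 the difference was 2.77 after LIF withdrawal (adjusted p = 5.91e-06) and 3.98 in embryoid bodies (adjusted p = 4.07e-07), and for Rb1 it was 1.07 (adjusted p = 0.000958) and 1.82 (adjusted p = 1.97e-05). For Cdkn1b it was 0.92 after LIF withdrawal (adjusted p = 0.00313) and 0.97 in embryoid bodies (adjusted p = 0.00154). For Cdk4 it was -0.44 after LIF withdrawal (adjusted p = 0.0205) and -0.73 in embryoid bodies (adjusted p = 0.000923). The Cdk4 difference after LIF withdrawal passed in all leave-one-out fits, but not with limma on log2(FPKM + 1) (-0.38, adjusted p = 0.0504) or on log2(FPKM + 0.1) (-0.38, adjusted p = 0.0533).

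For Ccnd2 the fitted differences were 3.40 after LIF withdrawal (adjusted p = 0.00448) and 4.80 in embryoid bodies (adjusted p = 0.000919). They rest on 2 counts over the pluripotent KO libraries, both in the first, and are not measured folds. Without that library they were 6.68 (adjusted p = 0.00436) and 8.08 (adjusted p = 0.000851). The difference after LIF withdrawal was lost with limma on log2(FPKM + 0.1) (1.27, adjusted p = 0.149) and changed sign on log2(FPKM + 1) (-0.069, adjusted p = 0.818). In embryoid bodies these fits gave 3.14 (adjusted p = 0.00967) and 1.70 (adjusted p = 0.00212). Ccne2 responded more in KO by 0.68 after LIF withdrawal (adjusted p = 0.0453). That call was lost without the first pluripotent KO library (0.51, adjusted p = 0.141), without the second KO library of LIF withdrawal (0.51, adjusted p = 0.136), without the first KO embryoid body library (0.68, adjusted p = 0.0609) and without the second (0.68, adjusted p = 0.0615). It was also lost with DESeq2 (adjusted p = 0.219), with no filter (adjusted p = 0.051) and with limma on log2(FPKM + 1) (adjusted p = 0.107) and log2(FPKM + 0.1) (adjusted p = 0.117). Ccnd3 fell further in KO than in WT in embryoid bodies, with a difference of -0.48 (adjusted p = 0.0181). That call was lost without the second KO embryoid body library (-0.45, adjusted p = 0.0601), with limma on log2(FPKM + 1) (-0.35, adjusted p = 0.0745) and on log2(FPKM + 0.1) (-0.35, adjusted p = 0.0804).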

How the results depend on the processing

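Of 90 results for the 10 genes over the 9 comparisons, 54 were called, and 43 of these kept their direction and call under all alternatives run. The other 11 lost the call under at least 1 alternative, 1 of them with a change of sign, and of the 36 not called 6 were called under at least 1. DESeq2 called fewer genes than edgeR: 4796 against 7248 in pluripotent culture, 2853 against 5010 after LIF withdrawal and 2905 against 5202 in embryoid bodies for KO versus WT, 1240 against 2866 and 2932 against 5398 for the WT responses to LIF withdrawal and in embryoid bodies, and 2377 against 4524 and 3286 against 5854 for the differences between responses. The cause was not tested. On log2(FPKM + 1), a scale that shrinks low genes, the Ccnd2 difference between responses to LIF withdrawal was -0.069, against 3.40, and Cdk6 after LIF withdrawal was -0.029 (-0.04 on log2(FPKM + 0.1)), against 0.024. With no filter Ccne2 after LIF withdrawal was 0.004, against -0.032. Leaving out a library, KO versus WT ran from -0.183 to 0.023 for Cdkn1b in pluripotent culture and, after LIF withdrawal, from -0.125 to 0.159 for Cdk6, from -0.024 to 0.274 for Ccne1 and from -0.197 to 0.114 for Ccne2. The KO responses ran from -0.136 to 0.175 for Ccne1 after LIF withdrawal and from -0.353 to 0.006 for Ccne2 in embryoid bodies. Except for the Ccnd2 difference, no call stood on the values that changed sign.

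Same-numbered KO libraries deviated together with correlations of 0.183, 0.0221 and 0.0708 between cultures, so the numbers were not taken to pair them. With the replicate block 7828 genes were called in pluripotent culture, and of the 90 results 0 lost a call and 5 gained one: the WT responses to LIF withdrawal of Ccnd1 (0.305, adjusted p = 0.0488) and Ccne1 (-0.311, adjusted p = 0.0412), Cdk6 in KO versus WT pluripotent cells (0.361, adjusted p = 0.0306), and the differences between responses of Ccne1 to LIF withdrawal (0.343, adjusted p = 0.0492) and of Ccne2 in embryoid bodies (0.651, adjusted p = 0.0151). All are edgeR quasi-likelihood values. Leaving out a WT library gives no value for a comparison that uses it. At 10147301 to 10863866 counts per library, Ccnd2 and Cdkn2c are limited by counts.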
